A study of Mus musculus with 16 samples.

Results

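The Hnrnp and SR genes code for RNA-binding proteins that coat newly made transcripts and steer the choice of splice sites. They were taken as every array feature whose platform gene symbol starts with Hnrnp (or the older Hnrp), or with Srsf (or the older Sfrs) followed by a digit. This gave 59 features for 33 genes, out of 31465 features that name a gene and 20738 named genes. The Hnrnp genes were 20 with 36 features and the SR genes 13 with 23 features. All 59 features lay above the filter on dim features, so no member was lost to it. RefSeq has renamed 5 of the genes: the platform's Hnrpdl and Hnrpll are Hnrnpdl and Hnrnpll, Sfrs18 is Pnisr, Srsf12 is Srek1, and Srsf13b is the present Srsf12. The genes were chosen by their symbols. The 2 families, however, were selected on the oxygen differences measured on these same arrays, so their counts in the oxygen comparisons are a description set beside the background of all genes and no independent evidence.

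Whole lungs of mouse pups were homogenised on postnatal day 3, and their RNA was read on a one-colour Agilent array, 1 array per sample. There were 4 groups of 4 arrays: Fgf10+/- pups in hyperoxia, wild-type pups in hyperoxia, Fgf10+/- pups in normoxia and wild-type pups in normoxia. Hyperoxia was 85% oxygen from day 0 to day 3. In Fgf10+/- pups 1 of the 2 alleles of Fgf10, whose protein drives branching of the lung, is lost in every cell and from conception, so early and late effects of the allele cannot be told apart.

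Values are log2 intensities as deposited, and a difference of 1 is a 2-fold change. Each comparison comes from 1 limma fit of all 16 arrays, in which 20173 genes were tested, each by its feature with the highest mean. A gene was called at a Benjamini-Hochberg adjusted p under 0.05. Nothing in the labels says how the replicates were spread over litters, and the p-values cover no more than the variation among these 16 samples, which may be technical. The homogenate mixes all cells of the lung, and fewer cells of a type cannot be told apart from less RNA per cell.

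Some facts of the arrays bear on what follows. The 12 lung markers measured, such as Sftpc of surfactant and the endothelial Pecam1, averaged 12.14 to 12.65 on every array, far above the array median of 4.50. The targeted gene Fgf10 averaged 7.64 ± 0.26 in Fgf10+/- hyperoxia and 7.85 ± 0.18 in wild-type hyperoxia, and 8.28 ± 0.32 in Fgf10+/- normoxia and 7.80 ± 0.39 in wild-type normoxia (SD, n = 4 each). Its signal was therefore not called lower in the arrays labelled Fgf10+/- at either oxygen level (adjusted p = 0.835 in hyperoxia and 0.334 in normoxia), and the genotype names are those of the labels. Wild-type normoxia replicate 4 stood apart: its 11 skeletal muscle genes averaged 8.42, against 4.57 to 5.56 over the other 15 arrays. Without that array, 18 and 10 of the 33 genes were called in Fgf10+/- and in wild-type pups, the same counts as with it. The genes were not all the same, as Hnrnpl lost its wild-type call (limma adjusted p = 0.0753). The normoxia arrays also split in a way that largely, though not fully, follows the genotypes. In normoxia the split and the genotype can therefore not be fully told apart. The 10 heat shock genes measured averaged 11.13 to 11.35 in Fgf10+/- hyperoxia and 11.15 to 11.28 in wild-type hyperoxia, against 10.95, 11.54, 12.09 and 11.68 in Fgf10+/- normoxia and 10.79, 10.80, 10.83 and 11.58 in wild-type normoxia. The 2 cold-induced genes Cirbp and Rbm3 averaged 12.18, 11.50, 11.30 and 11.14 in Fgf10+/- normoxia and 12.37, 12.27, 12.28 and 11.36 in wild-type normoxia. Fgf10+/- normoxia replicates 2, 3 and 4 and wild-type normoxia replicate 4 were thus high in the first list and low in the second. An added fit without these 4 arrays, chosen after seeing the data, leaves 1 array in Fgf10+/- normoxia, whose spread is then taken from the other groups.

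Heterogeneous nuclear ribonucleoproteins (hnRNPs) bind nascent RNA, many of them through RRM or KH domains, and often silence exons. The SR proteins carry a tail rich in arginine and serine and mostly promote exon inclusion. Both groups also act in mRNA export, stability and translation, and many of their genes limit their own output through alternative exons that mark the transcript for nonsense-mediated decay. Their balance shifts with cell proliferation and differentiation, both of which change quickly in the newborn lung.

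The stretches before the annotated starts of the gene that differed most, of its close relative Hnrnpa3 and of the SR gene that moved the other way are shown because these 3 genes carry the main contrast of the results. Each is the 250 bases upstream of the start, 5′ to 3′ on the gene's strand, from RefSeq on GRCm38.p6, with the letters CCAAT (or ATTGG, its complement) in capitals. The Hnrnpa1 window is chr15:103240147-103240396 on the plus strand and the Hnrnpa3 window chr2:75659009-75659258 on the plus strand. The Srsf11 window is chr3:158036607-158036856 on the minus strand, and RefSeq lists 2 starts for this gene.
Hnrnpa1: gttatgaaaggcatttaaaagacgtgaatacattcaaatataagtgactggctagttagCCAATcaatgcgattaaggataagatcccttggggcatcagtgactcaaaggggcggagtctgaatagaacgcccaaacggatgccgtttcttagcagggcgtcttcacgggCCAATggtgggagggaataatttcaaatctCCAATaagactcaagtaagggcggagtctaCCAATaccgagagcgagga
Hnrnpa3: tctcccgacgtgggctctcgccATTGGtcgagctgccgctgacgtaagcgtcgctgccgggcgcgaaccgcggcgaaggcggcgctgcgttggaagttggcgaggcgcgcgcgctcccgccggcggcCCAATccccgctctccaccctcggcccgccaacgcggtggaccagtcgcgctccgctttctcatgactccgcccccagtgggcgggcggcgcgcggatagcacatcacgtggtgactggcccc
Srsf11: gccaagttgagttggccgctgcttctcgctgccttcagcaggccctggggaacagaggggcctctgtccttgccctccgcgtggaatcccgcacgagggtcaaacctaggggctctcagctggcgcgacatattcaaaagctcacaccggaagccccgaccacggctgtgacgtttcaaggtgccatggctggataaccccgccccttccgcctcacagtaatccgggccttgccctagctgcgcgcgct
CCAAT stood 4 times in the Hnrnpa1 stretch, 2 times in that of Hnrnpa3 and 0 times in that of Srsf11. The stretches also differ in composition, with 46.0%, 73.2% and 63.6% G or C in the same order. Windows of 300 bases, 250 before and 50 after a start, were available for 30 of the 33 genes. A gene with several annotated starts was counted if any of its windows held the letters. Genes with more starts thus had more chances of a match. CCAAT on either strand was found in 17 of the 30 (56.7%), against 42.0% of the 15962 tested genes with a window. The GC box GGGCGG was found in 25 (83.3%, against 52.8%), and the E2F letters TTCCCGC or TTGGCGC in 11 (36.7%, against 10.6%). The ETS letters CCGGAAG stood in 7 (23.3%, against 13.8%), the E box CACGTG in 5 (16.7%, against 9.45%), TATAAA in 4 (13.3%, against 13.8%) and TTTGAA in 5 (16.7%, against 17.4%). All were searched on both strands, and a GC box and an E2F match can share bases. Of 7 genes with a window that were called lower in both genotypes, 6 held CCAAT, 7 the GC box and 1 the E2F letters. Srsf7 was the gene without CCAAT. Hnrnpc and Hnrnpul1, called in neither genotype by their brightest feature, each held up to 4 CCAAT matches in a window. These are matches of letters, and their part in the expression differences was not tested.

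Hyperoxia was set against normoxia first in Fgf10+/- pups and then in wild-type pups. In Fgf10+/- pups 17 of the 33 genes were lower in hyperoxia and 1 was higher (51.5% and 3.03%), against a background of 10.7% lower and 13% higher among all tested genes. In wild-type pups 8 were lower and 2 higher (24.2% and 6.06%), against 8.74% and 10.3%. The median difference of the 33 genes was -0.36 in Fgf10+/- and -0.19 in wild-type pups, while that of all tested genes was 0.03 in each. In the fit without the 4 normoxia arrays of high heat shock signal, 7 of the 33 genes were lower and 0 higher in Fgf10+/- pups, against 3.4% lower and 5.12% higher among all genes, with a median of -0.43. In wild-type pups 7 were lower and 1 higher, against 7.22% and 8.17%, with a median of -0.20. The 7 genes of Fgf10+/- pups were Hnrnpa0, Hnrnpa1, Hnrnpa3, Hnrnpab, Hnrnpr, Hnrnpul2 and Srsf12. The call of the other 11 was lost there, and for Hnrnpll the difference was -0.10 there, against -0.32 over all arrays. In wild-type pups Hnrnpl (adjusted p = 0.126) and Srsf6 (0.0575) lost theirs. The groups of 4 did not overlap for 17 genes that were lower and 2 that were higher in Fgf10+/- pups, against 11.1% and 13.8% of all tested genes. In wild-type pups there were 11 and 5 such genes, against 11.2% and 13.6%.

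The 2 families differed in make-up. Of the 20 Hnrnp genes, 12 were lower in Fgf10+/- pups and 7 in wild-type pups, and 0 were higher in either. Of the 13 SR genes, 5 were lower and 1 higher in Fgf10+/- pups, and 1 lower and 2 higher in wild-type pups. Of all tested genes 10.7% were lower and 13% higher in Fgf10+/- pups, and 8.74% and 10.3% in wild-type pups. The SR shares in wild-type pups, 7.69% lower and 15.4% higher, lay near those of all genes. Hnrnp medians were -0.42 and -0.24, and SR medians 0.02 and 0.19, in Fgf10+/- and wild-type pups. This contrast rests on the brightest feature of each gene. Over all features, the SR medians turned to -0.42 and -0.26, with 12 and 6 of 23 called lower (52.2% and 26.1%). The Hnrnp medians were -0.56 and -0.39, with 24 and 16 of 36 called lower (66.7% and 44.4%). Of all kept features, 10.1% and 8.12% were called lower. In these feature values a gene with several features weighs more than a gene with 1. Averaged over the 20 Hnrnp genes, the log2 signal ran from 10.11 to 10.29 in Fgf10+/- hyperoxia, against 10.58 to 10.71 in Fgf10+/- normoxia. In wild-type pups it ran from 10.15 to 10.33 in hyperoxia, against 10.48 to 10.56 in normoxia, so the arrays did not overlap in either genotype. Averaged over the 13 SR genes it ran from 9.46 to 9.66 and from 9.69 to 9.79 in Fgf10+/- and wild-type hyperoxia, against 9.64 to 9.76 and 9.58 to 9.73 in normoxia, ranges that overlap within each genotype. The 8 genes called lower in wild-type pups were all among the 17 called lower in Fgf10+/- pups (100% and 47.1% of each list), and 14 genes were called in neither.

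**Figure D1:**
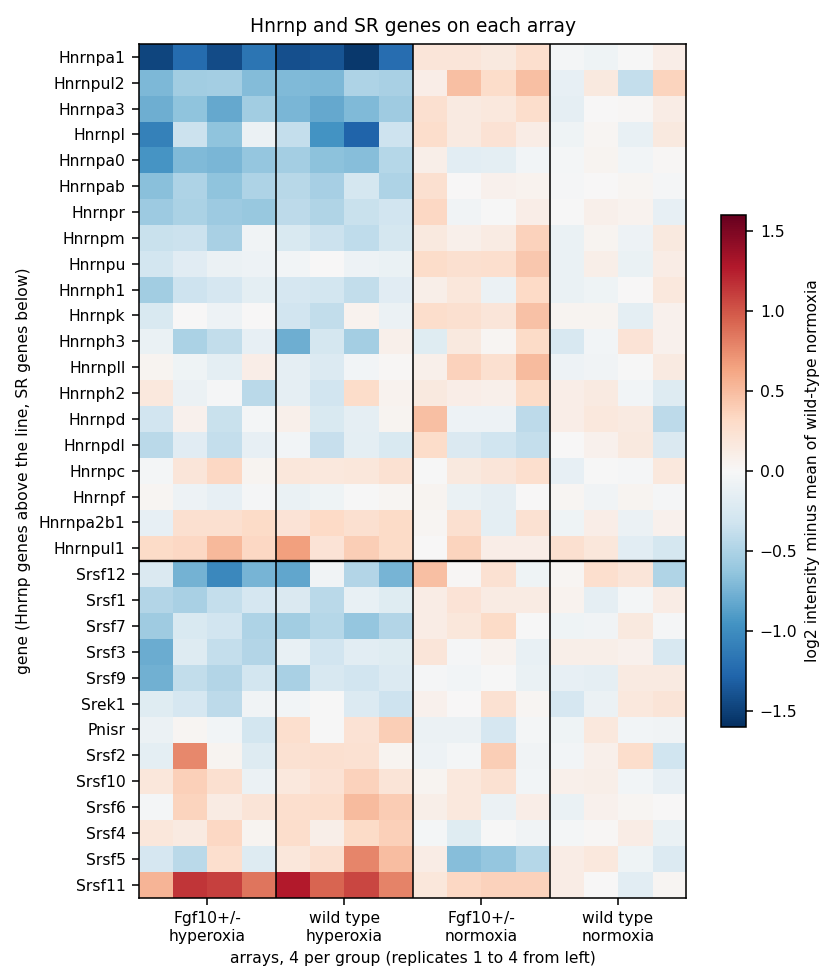
Log2 signal of the 33 genes (rows) on the 16 arrays (columns), as the difference from the mean of the 4 wild-type normoxia arrays, with Hnrnp genes above the line and SR genes below and each family ordered by its difference in Fgf10+/- pups. Each gene is shown by its brightest feature; Hnrnpa1 is lower on every hyperoxia array and Srsf11 higher.

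**Figure D2:**
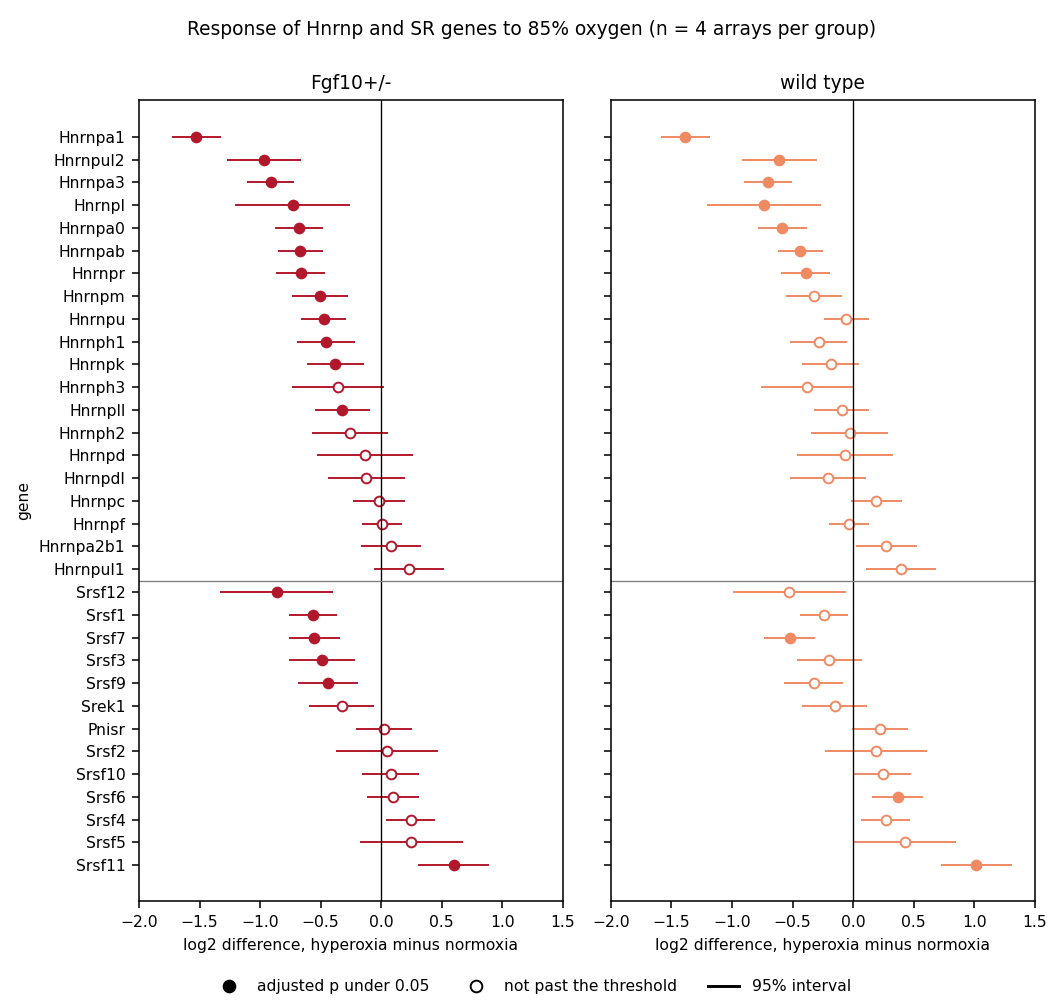
Log2 difference between hyperoxia and normoxia (x axis) with its 95% interval for each gene (y axis), in Fgf10+/- pups on the left and wild-type pups on the right, 4 arrays per group. Filled points passed an adjusted p under 0.05: 18 genes in Fgf10+/- pups and 10 in wild-type pups.

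Of the A/B type hnRNPs, 4 of 5 fell in both genotypes. Hnrnpa1, a shuttling protein that represses exons and opposes Srsf1 in the choice of splice sites, had log2 signals of 9.07, 9.31, 9.11 and 9.36 in Fgf10+/- hyperoxia, against 10.73, 10.73, 10.70 and 10.80 in Fgf10+/- normoxia. In wild-type pups its signals were 9.14, 9.15, 8.99 and 9.32 in hyperoxia, against 10.50, 10.47, 10.53 and 10.64 in normoxia. All 8 hyperoxia arrays lay more than 1 log2 unit below all 8 normoxia arrays. It fell 2.88-fold in Fgf10+/- pups (log2 -1.53, SE 0.09, limma adjusted p = 4.16e-07) and 2.62-fold in wild-type pups (-1.39, SE 0.09, adjusted p = 1.67e-06). By the brightest feature of each gene, no other member fell by 2-fold in either genotype.

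Hnrnpa3, a close relative of Hnrnpa1, had signals of 12.90, 13.04, 12.86 and 13.13 in Fgf10+/- hyperoxia, against 13.94, 13.83, 13.85 and 13.97 in Fgf10+/- normoxia. In wild-type pups they were 12.95, 12.86, 12.98 and 13.11 in hyperoxia, against 13.53, 13.69, 13.71 and 13.80 in normoxia. The oxygen groups did not overlap in either genotype, and the differences were -0.91 (SE 0.09, adjusted p = 1.56e-05) and -0.71 (SE 0.09, adjusted p = 0.000152). Hnrnpa0, known for binding AU-rich elements of cytokine mRNAs, had signals of 11.31, 11.54, 11.51 and 11.62 in Fgf10+/- hyperoxia, against 12.33, 12.08, 12.09 and 12.20 in Fgf10+/- normoxia. Wild-type signals were 11.70, 11.59, 11.56 and 11.79 in hyperoxia, against 12.22, 12.29, 12.20 and 12.27 in normoxia. Again the groups did not overlap, with differences of -0.68 (SE 0.09, adjusted p = 0.000148) and -0.58 (SE 0.09, adjusted p = 0.000635). Hnrnpab, a related protein of the A/B type, fell by 0.67 in Fgf10+/- pups (adjusted p = 9.8e-05) and by 0.44 in wild-type pups (adjusted p = 0.00271). Hnrnpa2b1, the remaining member of this type, averaged 12.19 ± 0.20 in Fgf10+/- hyperoxia and 12.11 ± 0.20 in Fgf10+/- normoxia, with a difference of 0.08 (95% interval -0.17 to 0.33). In wild-type pups it was 12.29 ± 0.05 in hyperoxia and 12.02 ± 0.10 in normoxia, a difference of 0.27 that did not pass (95% interval 0.02 to 0.52, adjusted p = 0.125) although the arrays did not overlap.

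Among the proteins that bind CA repeats, Hnrnpl had signals of 6.14, 6.88, 6.57 and 7.13 in Fgf10+/- hyperoxia, against 7.49, 7.36, 7.45 and 7.34 in Fgf10+/- normoxia. In wild-type pups they were 6.84, 6.25, 5.93 and 6.89 in hyperoxia, against 7.14, 7.25, 7.10 and 7.37 in normoxia. The hyperoxia arrays scattered over about 1 log2 unit, and the normoxia arrays over less than 0.3. Its differences were -0.73 (SE 0.22, adjusted p = 0.0256) and -0.74 (SE 0.22, adjusted p = 0.0298), and in each genotype the call was lost in 4 of the 8 fits that leave out 1 array of the comparison (adjusted p up to 0.0813 in Fgf10+/- and 0.093 in wild-type pups). Its paralog Hnrnpll, known for switching exons in activated lymphocytes, had signals of 9.80, 9.68, 9.59 and 9.86 in Fgf10+/- hyperoxia, against 9.83, 10.12, 10.01 and 10.25 in Fgf10+/- normoxia. These ranges overlap. Its difference of -0.32 (adjusted p = 0.0391) was no longer called in 6 of those 8 fits, and in wild-type pups it was -0.10 (adjusted p = 0.602).

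The U type binds chromatin as well as RNA. Hnrnpul2, linked to the processing of DNA breaks, had signals of 8.01, 8.17, 8.18 and 8.03 in Fgf10+/- hyperoxia, against 8.84, 9.21, 9.01 and 9.21 in Fgf10+/- normoxia. Its wild-type signals were 8.02, 8.01, 8.23 and 8.20 in hyperoxia, against 8.60, 8.88, 8.34 and 9.08 in normoxia. Every hyperoxia array lay below every normoxia array, and the differences were -0.97 (SE 0.14, adjusted p = 0.000248) and -0.61 (SE 0.14, adjusted p = 0.00818). Hnrnpu, the scaffold attachment factor, fell by 0.47 in Fgf10+/- pups (SE 0.09, adjusted p = 0.00121) and differed by -0.06 in wild-type pups (95% interval -0.24 to 0.13, adjusted p = 0.726). Hnrnpul1, the third of the type, went the other way without passing, by 0.23 in Fgf10+/- pups (adjusted p = 0.259) and 0.39 in wild-type pups (adjusted p = 0.0562).

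Of the other Hnrnp genes, Hnrnpr, a partner of the motor neuron protein Smn, fell in both genotypes, by 0.66 in Fgf10+/- pups (adjusted p = 0.000174) and 0.39 in wild-type pups (adjusted p = 0.0087). By the brightest feature, a further 3 genes passed in Fgf10+/- pups and not in wild-type pups. Hnrnpm, which binds GU-rich RNA, differed by -0.50 (adjusted p = 0.00351) and -0.32 (adjusted p = 0.0519). Hnrnph1, which binds runs of G, differed by -0.46 (adjusted p = 0.00807) and -0.28 (adjusted p = 0.0924). Hnrnpk, which binds C-rich RNA through KH domains, differed by -0.38 (adjusted p = 0.0223) and -0.19 (adjusted p = 0.284). Its Fgf10+/- call was lost without Fgf10+/- hyperoxia replicate 1 (adjusted p = 0.0689) or Fgf10+/- normoxia replicate 4 (0.0727). The remaining G-run binders did not pass: Hnrnpf differed by 0.00 and -0.04 with intervals of -0.16 to 0.17 and -0.20 to 0.13, Hnrnph2 by -0.26 and -0.03, and the dim Hnrnph3 by -0.36 and -0.38. Hnrnpc, which binds runs of U on nascent RNA, differed by -0.02 and 0.19, and Hnrnpd, the AU-rich element factor of mRNA decay, by -0.14 and -0.07. None of these passed by the brightest feature in either genotype. Hnrnpd followed the split of the normoxia arrays, with 10.64, 10.08, 10.08 and 9.75 in Fgf10+/- normoxia and 10.27, 10.33, 10.30 and 9.74 in wild-type normoxia. Without the 4 arrays named above its differences were -0.64 (adjusted p = 0.0685) and -0.21 (adjusted p = 0.343), and it was again not called.

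Of the SR genes, 2 rose. Srsf11, known in neurons for the inclusion of very short exons, had signals of 10.59, 11.20, 11.14 and 10.91 in Fgf10+/- hyperoxia, against 10.23, 10.38, 10.41 and 10.41 in Fgf10+/- normoxia. In wild-type pups they were 11.32, 10.98, 11.11 and 10.84 in hyperoxia, against 10.17, 10.06, 9.88 and 10.08 in normoxia. All 8 hyperoxia arrays lay above all 8 normoxia arrays. The rise was 1.52-fold in Fgf10+/- pups (log2 0.60, SE 0.14, adjusted p = 0.00524) and 2.02-fold in wild-type pups (log2 1.02, SE 0.14, adjusted p = 0.000188). Taking the mean of its 2 features in place of the brighter, the Fgf10+/- difference was 0.42 and was not called (adjusted p = 0.156). Srsf6, known for its part in skin repair, had wild-type signals of 10.60, 10.62, 10.84 and 10.74 in hyperoxia, against 10.23, 10.40, 10.37 and 10.34 in normoxia, a rise of 0.37 (SE 0.10, adjusted p = 0.0185). Its Fgf10+/- signals of 10.30, 10.68, 10.47 and 10.54 in hyperoxia overlapped those of 10.43, 10.50, 10.23 and 10.44 in normoxia, with a difference of 0.10 (adjusted p = 0.556). The wild-type call was lost without wild-type hyperoxia replicate 3 or wild-type normoxia replicate 1 (adjusted p up to 0.0618), and with the mean of both features the difference was 0.00.

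By the brightest feature of each gene, Srsf7 was the SR gene that fell in both genotypes. It codes for an SR protein with a zinc knuckle that also serves mRNA export. Its signals were 10.21, 10.54, 10.46 and 10.29 in Fgf10+/- hyperoxia, against 10.90, 10.95, 11.08 and 10.77 in Fgf10+/- normoxia, and the groups did not overlap. In wild-type pups they were 10.22, 10.32, 10.16 and 10.31 in hyperoxia, against 10.71, 10.72, 10.93 and 10.76 in normoxia, again apart. The differences were -0.55 (SE 0.10, adjusted p = 0.00106) and -0.52 (SE 0.10, adjusted p = 0.00203). By the same measure, the SR genes that passed the threshold in Fgf10+/- pups alone were Srsf1, Srsf3, Srsf9 and Srsf12. Other features of Srsf1 and Srsf3 were called lower in wild-type pups too, as given below. Srsf1, the founding SR protein, had signals of 9.61, 9.56, 9.70 and 9.81 in Fgf10+/- hyperoxia, against 10.20, 10.30, 10.21 and 10.21 in Fgf10+/- normoxia, and fell by 0.56 (SE 0.09, adjusted p = 0.000566). In wild-type pups its signals were 9.85, 9.65, 9.96 and 9.89 in hyperoxia, against 10.14, 9.93, 10.05 and 10.20 in normoxia, with a difference of -0.24 (adjusted p = 0.0888). The Fgf10+/- groups lay apart and the wild-type groups overlapped.

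Srsf3, the smallest SR protein, fell by 0.49 in Fgf10+/- pups (adjusted p = 0.0116) and differed by -0.20 in wild-type pups (adjusted p = 0.329). Srsf9 fell by 0.44 in Fgf10+/- pups (adjusted p = 0.012) and differed by -0.33 in wild-type pups (adjusted p = 0.0621). Srsf12, a relative of Srsf10, gave 4.63, 4.11, 3.83 and 4.12 in Fgf10+/- hyperoxia, against 5.35, 4.89, 5.11 and 4.80 in Fgf10+/- normoxia, a difference of -0.86 (SE 0.22, adjusted p = 0.00971). Its wild-type signals of 4.03, 4.81, 4.39 and 4.13 in hyperoxia, against 4.89, 5.13, 5.06 and 4.38 in normoxia, overlapped (difference -0.53, adjusted p = 0.112). Such levels lie around the array median (4.50), where folds are imprecise. The other SR genes did not pass in either genotype by their brightest feature. Srsf4 and Srsf5 differed by 0.24 and 0.25 in Fgf10+/- pups and by 0.27 and 0.43 in wild-type pups. Srsf5 had signals of 11.52, 10.72, 10.78 and 10.94 in Fgf10+/- normoxia and 11.51, 11.57, 11.33 and 11.18 in wild-type normoxia, lower on the 4 arrays of high heat shock signal. Without those arrays its difference turned to -0.28 in Fgf10+/- pups (adjusted p = 0.615) and was 0.36 in wild-type pups (adjusted p = 0.248). Srsf2, which also acts in transcript elongation, differed by 0.05 and 0.19, and Srsf10, a repressor when dephosphorylated in heat shock, by 0.08 and 0.24. Pnisr, a protein with an arginine and serine tail that binds pinin, differed by 0.02 and 0.22, and Srek1, an SR-related regulator of other SR proteins, by -0.33 and -0.15.

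**Figure D3:**
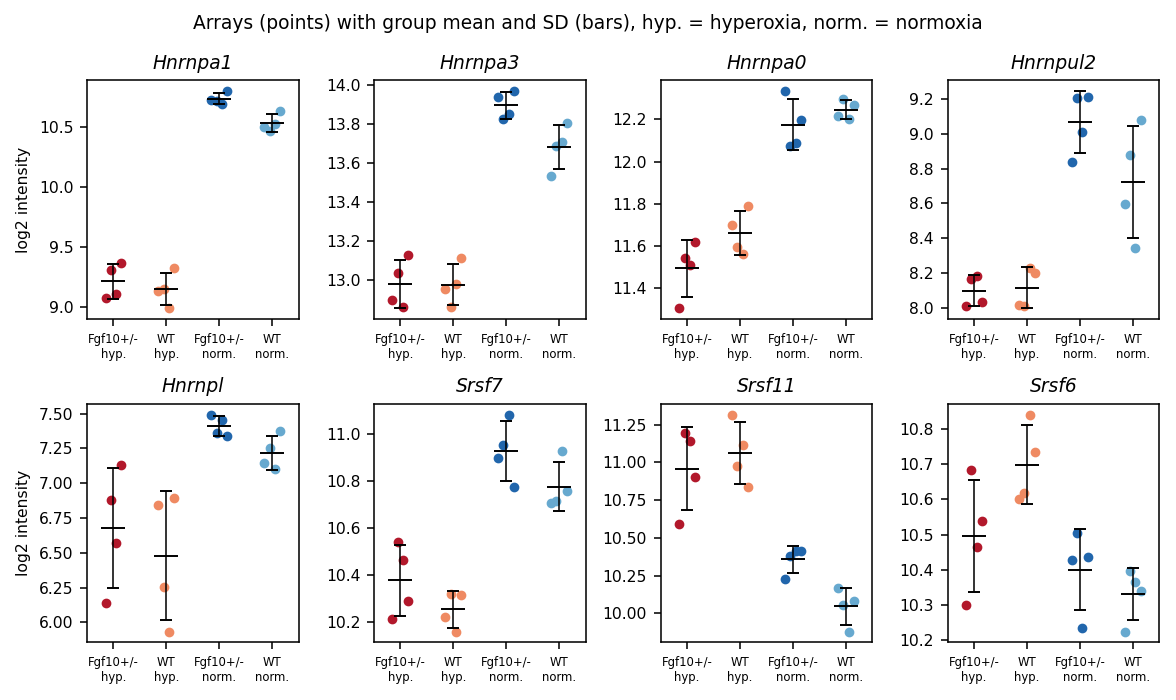
Log2 signal (y axis, a separate range per panel) of 8 genes on each array (points), with group mean and SD (bars), for Fgf10+/- and wild-type pups (WT) in hyperoxia (left pair) and normoxia (right pair). In 6 panels, from Hnrnpa1 to Srsf7, the hyperoxia arrays lie lower, in that of Srsf11 they lie higher, and in that of Srsf6 the Fgf10+/- groups overlap.

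The features of a gene did not always tell the same story. At the level of features, 36 of the 59 were called lower and 1 higher in Fgf10+/- pups, against 10.1% and 11.6% of all kept features. In wild-type pups 22 were lower and 2 higher, against 8.12% and 8.81%. The groups did not overlap for 36 features that were lower and 2 that were higher in Fgf10+/- pups (10.7% and 12.5% of all features), and for 24 and 5 in wild-type pups (11% and 12.4%). Of the 17 genes with several features, 0 had features called in opposite directions. In Fgf10+/- pups all features were called lower in 7 genes, some and not others in 6, and none in 4. In wild-type pups those counts were 2, 10 and 5. Within the 17 genes the brightest feature, which stood for the gene above, often showed the smaller fall. The 26 other features had a median of -0.65 in Fgf10+/- pups and -0.48 in wild-type pups, against -0.12 and -0.19 for the 17 brightest. The 2 medians weigh the genes differently, because Hnrnpa3 alone has 7 features and each gene has 1 brightest. Set against the brightest feature of the same gene, 19 of the 26 lay lower in Fgf10+/- pups and 16 in wild-type pups. Of these 26, 19 were called lower in Fgf10+/- pups and 14 in wild-type pups, and 0 were called higher in either. Which transcripts each feature reads, and how far features of Hnrnpa1 and Hnrnpa3 also bind RNA of their processed pseudogenes, is not stated in the labels or files, and its part in these values was not tested.

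The widest gap was in Hnrnpdl, a relative of Hnrnpd whose last exons are spliced in several ways. Its bright feature gave 11.19, 11.45, 11.25 and 11.50 in Fgf10+/- hyperoxia, against 11.93, 11.40, 11.31 and 11.25 in Fgf10+/- normoxia, and was not called (-0.12, adjusted p = 0.634). Its dimmer feature gave 7.90, 8.20, 7.88 and 7.79 in Fgf10+/- hyperoxia, against 9.71, 8.94, 9.03 and 9.02 in Fgf10+/- normoxia, and fell by 1.23 (SE 0.16, adjusted p = 9.51e-05). In wild-type pups the dimmer feature gave 8.51, 8.36, 8.33 and 8.22 in hyperoxia, against 9.54, 9.53, 9.47 and 9.29 in normoxia, and fell by 1.10 (adjusted p = 0.000309), while the bright feature differed by -0.21 (adjusted p = 0.399). The dimmer feature thus lay apart between the oxygen groups in both genotypes, while the oxygen groups of the bright feature overlapped in both. In wild-type normoxia the bright feature gave 11.63, 11.70, 11.78 and 11.40, so in both genotypes it was lower on the normoxia arrays of high heat shock signal. Without those arrays it differed by -0.58 in Fgf10+/- pups (adjusted p = 0.0652) and -0.28 in wild-type pups (adjusted p = 0.138).

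Srsf2 showed a like split. The feature that stands for it was not called, and its second feature gave 7.73, 7.75, 7.41 and 7.67 in Fgf10+/- hyperoxia, against 8.89, 8.47, 8.20 and 8.29 in Fgf10+/- normoxia, a fall of 0.83 (adjusted p = 0.000791). That feature fell by 0.53 in wild-type pups as well (adjusted p = 0.0176). Both further features of Hnrnpk fell in both genotypes, by 0.89 and 0.79 in Fgf10+/- pups and by 0.46 and 0.63 in wild-type pups. The other features of Srsf1 fell by 0.64 and 0.90 in Fgf10+/- pups and by 0.51 and 0.68 in wild-type pups, where its brightest feature did not pass. Those of Srsf3 fell by 0.51 and 0.42 in Fgf10+/- pups and by 0.68 and 0.32 in wild-type pups. With features averaged per gene, Hnrnpdl, Hnrnpk and Srsf1 were called lower in wild-type pups too (adjusted p = 0.00582, 0.00861 and 0.00336).

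Hnrnpa3 had the most features, 7, and all were called lower in Fgf10+/- pups, by 0.61 to 1.57. In wild-type pups 5 of the 7 were called and the falls of all 7 lay between 0.49 and 0.71. Hnrnpa1's second feature fell by 1.03 in Fgf10+/- pups (adjusted p = 0.000192) and 0.51 in wild-type pups (adjusted p = 0.0259), a smaller size than that of its brightest. Hnrnpa0's second feature was not called in either genotype (-0.29 and 0.01), and without the choice of the brightest the mean of both was not called in wild-type pups (-0.29, adjusted p = 0.195). The second feature of Srsf6 had the opposite sign to the first in wild-type pups (-0.36, adjusted p = 0.195) without being called. Hnrnpa2b1 had a dim second feature near the array median, which differed from the first by over 1 log2 unit in the comparison of genotypes in normoxia and was not called in any comparison.

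**Figure D4:**
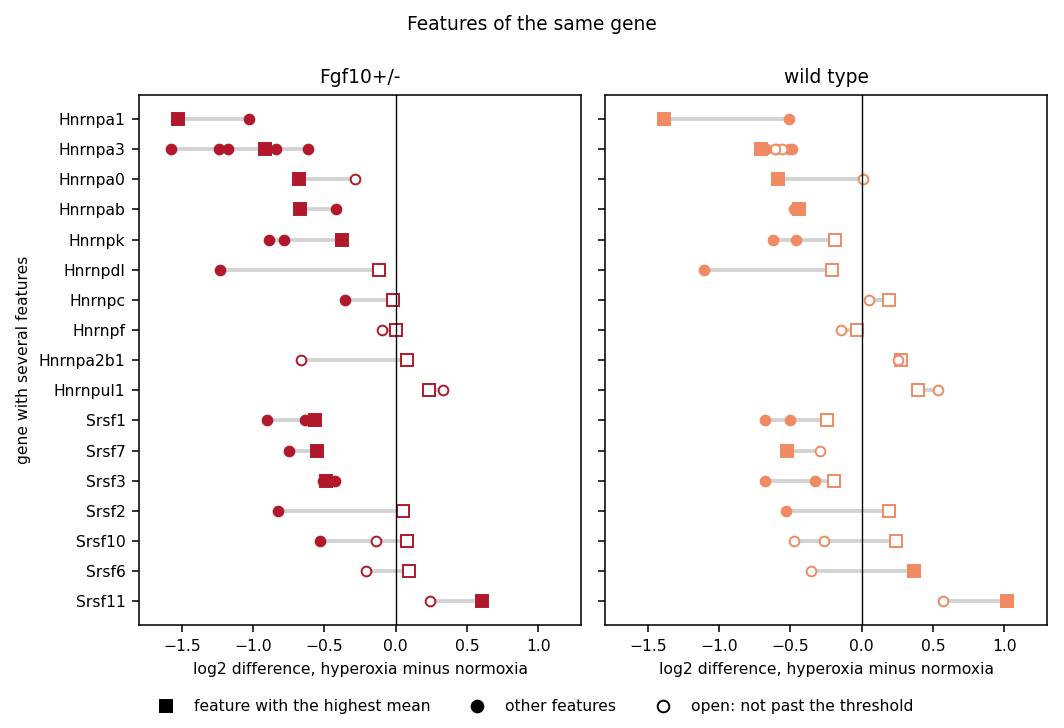
Log2 difference between hyperoxia and normoxia (x axis) for each feature of the 17 genes with several features (y axis), in Fgf10+/- pups on the left and wild-type pups on the right. Squares are the feature with the highest mean, circles the others, and filled symbols passed an adjusted p under 0.05; most circles lie left of their square.

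The genotypes were compared at each oxygen level. In hyperoxia 0 of the 33 genes were called (0.292% higher and 0.119% lower among all genes), and 2 had an unadjusted p under 0.05, against 9.01% of all genes. In normoxia 0 were called (0.114% and 0.605%), and 7 had an unadjusted p under 0.05, against 12.9% of all genes. In hyperoxia the smallest p-values were those of Pnisr, Srsf5 and Srsf3. Pnisr had signals of 9.65, 9.78, 9.70 and 9.44 in Fgf10+/- hyperoxia, against 10.01, 9.74, 9.97 and 10.13 in wild-type hyperoxia, a difference of -0.32 (SE 0.11, adjusted p = 0.333). Srsf5, an SR protein of the insulin response, had 11.12, 10.97, 11.67 and 11.19, against 11.58, 11.66, 12.18 and 11.89 in wild-type hyperoxia, a difference of -0.59 (SE 0.20, adjusted p = 0.339). Srsf3 had 10.28, 10.87, 10.70 and 10.61 in Fgf10+/- hyperoxia, against 10.96, 10.78, 10.91 and 10.89 in wild-type hyperoxia (-0.27, adjusted p = 0.566). In all 3 genes the genotypes overlapped by at least 1 array.

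In normoxia the smallest p-values belonged to Hnrnpu, Hnrnpll and Hnrnpk. Hnrnpu had signals of 10.68, 10.66, 10.66 and 10.83 in Fgf10+/- normoxia, against 10.28, 10.49, 10.29 and 10.52 in wild-type normoxia, and the genotypes did not overlap. The difference was 0.31 (SE 0.09, adjusted p = 0.122), and limma's trend and robust options gave an adjusted p of 0.0485. Hnrnpll had 9.83, 10.12, 10.01 and 10.25, against 9.67, 9.70, 9.74 and 9.90 in wild-type normoxia, with overlap (0.30, adjusted p = 0.22). Its signal was 9.90 to 10.25 on the normoxia arrays of high heat shock signal and 9.67 to 9.83 on the other normoxia arrays. Most of the former are Fgf10+/- arrays, and the part of that split in this difference was not tested. Hnrnpk had 10.29, 10.27, 10.20 and 10.48, against 10.06, 10.05, 9.86 and 10.08 in wild-type normoxia, without overlap (0.30, adjusted p = 0.25). The genotypes lay apart in normoxia for 5 genes, all higher in Fgf10+/- pups (3.02% of all genes lay apart and higher, and 4.52% lower): Hnrnpa1, Hnrnpa3, Hnrnpk, Hnrnpu and Srsf11. In hyperoxia they lay apart for 1 gene, Hnrnpr, lower in Fgf10+/- pups (2.85% lower and 3.13% higher among all genes). The 33 genes were positive in 25 cases and negative in 8 in normoxia (median 0.10), and positive in 7 and negative in 26 in hyperoxia (median -0.08). Of the 59 features, 0 were called between genotypes in hyperoxia (0.229% higher and 0.072% lower among all features) and 0 in normoxia (0.0818% and 0.484%). Features lay apart in 4 cases in hyperoxia, all lower in Fgf10+/- pups (2.65%), and in 8 in normoxia, all higher (3.02%). Over all tested genes 50.5% were negative in normoxia and 51.1% in hyperoxia.

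The difference between the genotypes in their response to oxygen was tested as an interaction, and 0 of the 33 genes were called, as were 0% of all genes higher and 0% lower. At an unadjusted p under 0.05 there were 3 genes, against 6.62% of all genes. Hnrnpu came first (interaction -0.42, SE 0.12, limma adjusted p = 0.618), followed by Srsf1 (-0.32, adjusted p = 0.734) and Srsf11 (-0.42, adjusted p = 0.751). The interaction was negative in 29 of the 33 genes, among them all 13 SR genes, with a median of -0.18, against 48.3% negative and a median of 0.01 over all tested genes. All 33 share 16 arrays, and a larger number of genes is no larger number of samples. Genes that passed in Fgf10+/- pups and not in wild-type pups are therefore not shown to respond differently.

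Other genes of splicing and RNA decay were taken from lists that exclude the members. Of 124 measured, 20 were lower and 11 higher in Fgf10+/- pups (16.1% and 8.87%, against 10.7% and 13% of all tested genes). This background depends on the filter on dim features. At the 50th percentile, 15.8% of all tested genes were lower and 19.5% higher in Fgf10+/- pups. In wild-type pups 16 were lower and 13 higher (12.9% and 10.5%, against 8.74% and 10.3%), shares near those of all genes. The wild-type total of 29 fell below 20 without wild-type hyperoxia replicate 1, 2 or 3 (18, 16 and 17) or wild-type normoxia replicate 3 (19). Of the 17 other hnRNP-type proteins, 5 were lower and 3 higher in Fgf10+/- pups (median -0.15), and 3 lower and 2 higher in wild-type pups (median -0.20). Rbmx, known as hnRNP G, fell by 0.96 in Fgf10+/- pups (adjusted p = 0.000754) and 0.76 in wild-type pups (adjusted p = 0.00492). Ptbp1, the polypyrimidine tract protein, fell by 0.56 and 0.36, and Ewsr1, of the FET family, by 0.61 and 0.51. Matr3, the nuclear matrix protein matrin 3, fell by 0.47 in Fgf10+/- pups and differed by -0.07 in wild-type pups (adjusted p = 0.729).

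Of 19 SR-related proteins, 3 were lower and 1 higher in Fgf10+/- pups, and 3 lower and 3 higher in wild-type pups, with medians of -0.09 and 0.03. Pnn, the pinin of nuclear speckles, fell by 0.86 and 0.79, Rnps1 of the exon junction complex by 0.44 and 0.52, and Bclaf1 by 0.34 and 0.36, while Luc7l rose by 0.46 and 0.45. Of 11 kinases and import factors of SR proteins, 1 and 2 were lower and 0 higher. Clk3, a kinase of the SR tail, fell by 0.37 and 0.41, and Clk1 differed by -0.15 in Fgf10+/- pups (adjusted p = 0.51) and fell by 0.43 in wild-type pups (adjusted p = 0.0492). Clk4 (0.33 and 0.23) and Prpf4b (0.41 and 0.26) did not pass. Of 47 core spliceosome genes, 8 were lower and 2 higher in Fgf10+/- pups (median -0.06), and 6 lower and 3 higher in wild-type pups (median 0.06). Among them the Sm protein genes Snrpe (-0.70 and -0.71), Snrpd1 (-0.68 and -0.41) and Snrpb (-0.55 and -0.76) and the helicase gene Snrnp200 (-0.51 and -0.48) fell in both genotypes.

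Of 23 tissue-restricted splicing regulators, 3 were lower and 3 higher in Fgf10+/- pups (13.0% each), and 2 lower and 3 higher in wild-type pups (8.7% and 13.0%), close to the shares of all genes. The epithelial regulators Esrp1 and Esrp2 rose, by 0.84 and 0.99 in Fgf10+/- pups and 0.70 and 0.86 in wild-type pups. Mbnl3, a muscleblind protein, fell by 1.17 and 0.83. Khdrbs1, the RNA-binding protein Sam68, fell by 0.73 in Fgf10+/- pups and differed by -0.28 in wild-type pups (adjusted p = 0.0644). Of 7 nonsense-mediated decay genes, 2 were higher and 0 lower in each genotype: Smg5 rose by 0.40 and 0.41, Smg9 rose by 0.36 in Fgf10+/- pups (wild type 0.25, adjusted p = 0.121), and Upf1 rose by 0.42 in wild-type pups (Fgf10+/- 0.15, adjusted p = 0.416). Smg6 did not pass (-0.13 and -0.25).

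**Figure D5:**
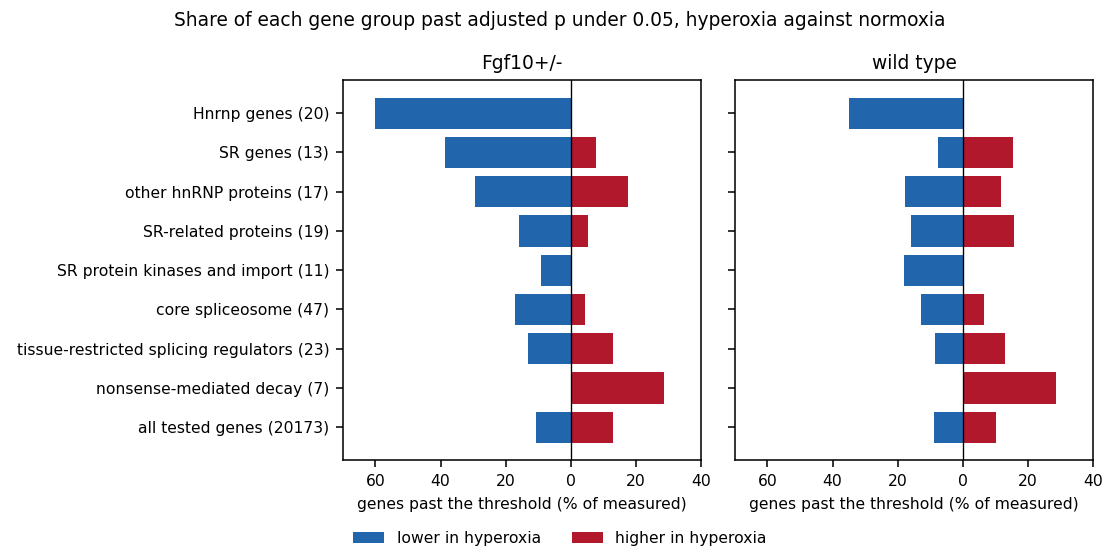
Share of each gene group called lower (to the left) or higher (to the right) in hyperoxia, in percent of its measured genes, whose number stands in parentheses, for Fgf10+/- pups on the left and wild-type pups on the right. The Hnrnp genes reach 60% lower in Fgf10+/- pups and 35% in wild-type pups, against 10.7% and 8.74% of all tested genes.

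Genes of mitosis moved with oxygen on the same arrays. Of 16 measured, 16 were lower in Fgf10+/- hyperoxia and 15 in wild-type hyperoxia, with medians of -1.56 and -2.02. Averaged over the list, the signal ran from 7.35 to 8.19 in Fgf10+/- hyperoxia, against 9.45 to 9.49 in Fgf10+/- normoxia. In wild-type pups it ran from 6.40 to 6.94 in hyperoxia, against 8.52 to 9.03 in normoxia. The list was also higher in Fgf10+/- pups than in wild-type pups, with 11 of 16 genes called higher in hyperoxia and 1 in normoxia. Of the 33 Hnrnp and SR genes, 0 were called between the genotypes. By sign alone, 25 of the 33 were higher in Fgf10+/- pups in normoxia, and 26 were lower in hyperoxia. Their oxygen medians of -0.36 and -0.19 were much smaller than those of the mitosis list, so the 2 counts of calls cannot be compared. The part of dividing cells in the Hnrnp and SR differences was not tested. Of 10 heat shock genes, 3 were lower in Fgf10+/- hyperoxia, and 1 was lower and 1 higher in wild-type hyperoxia, and of the 2 cold-induced RNA-binding proteins, Rbm3 was lower in both genotypes (-0.41 and -0.40) while Cirbp did not pass.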

How the data were processed

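Lung RNA of mouse pups, in 16 samples with 4 per group, was hybridised to one-colour Agilent arrays. Per the labels' protocols it was extracted with a miRNeasy kit and labelled with Cy3 by QuickAmp. The deposited values are log2 intensities per feature (62976 features, 33 missing values). All arrays have a median of 4.50 and a highest value of 15.99, so the authors appear to have set them to 1 distribution, a step that no label states; background correction, slide and scan are not stated in the labels.

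Of the features, 31465 name 1 gene. Names were updated through RefSeq (GRCm38.p6) by accession (29050), current symbol (2061) or unique synonym (349), and 5 kept the platform's name. Features above the 25th percentile of their array on at least 4 arrays were kept (30551), and each gene was tested by its kept feature with the highest mean (20173 genes). Differences were fitted with limma 3.58.1 in R 4.3.3, with 1 mean per group and moderated variances (residual degrees of freedom 12, prior 2.13), and Benjamini-Hochberg adjustment within each comparison. The fit was also run on simulated data, with independent noise and effects added to wild-type hyperoxia alone. Those data hold none of the array splits described above, so they cannot show how the fit handles them. Features were fitted separately. Precision is limited by having 4 arrays in a group.

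The members and lists were chosen with earlier results of these data known. Values per array are given for the 5 largest called rises and falls in each oxygen comparison, and for the 3 smallest p-values between genotypes and in the interaction; features that disagree are named, and up to 4 genes per list with the smallest p. Srsf7 was given per array after its values were seen. The alternatives were 2 other filters, the mean of features, 2 scalings, trend and robust options, fits restricted to the groups being compared, a replicate block, each array left out and, added after seeing the data, 4 normoxia arrays left out.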

Additional observations from a re-analysis of the deposited data

Results flagged for a closer look

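Single arrays far from the other 3 of their group were looked for in all 132 sets of 4 values (33 genes in 4 groups), by the gap to the nearest array as a share of the range, with Dixon's 95% critical value as the limit. There were 11, and chance gives about 1 in 20. None of the 11 was found in the genes called lower in both genotypes. In Fgf10+/- hyperoxia, Hnrnpa2b1 was low on replicate 1 (11.9, the others 12.27 to 12.33) and Hnrnpul1 high on replicate 3 (8.7, the others 8.48 to 8.51). In wild-type hyperoxia, Srsf2 was low on replicate 4 (8.18, the others 8.38 to 8.39).

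In Fgf10+/- normoxia, Hnrnpu was high on replicate 4 (10.8, the others 10.66 to 10.68), Srsf1 high on replicate 2 (10.3, the others 10.20 to 10.21), Srsf2 high on replicate 3 (8.54, the others 8.06 to 8.11) and Srsf11 low on replicate 1 (10.2, the others 10.38 to 10.41). In wild-type normoxia, Hnrnpd was low on replicate 4 (9.74, the others 10.27 to 10.33) and Srsf3 low on the same array (10.8, the others 11.15 to 11.18). This array also had a high skeletal muscle signal (8.42), a high brown fat signal (6.96, the others 5.18 to 5.33), a high heat shock signal (11.58, the others 10.79 to 10.83) and a low signal of the cold-induced genes (11.36, the others 12.27 to 12.37), and their part in these values was not tested. In the same group Hnrnpk was low on replicate 3 (9.86, the others 10.05 to 10.08) and Pnisr high on replicate 2 (9.9, the others 9.68 to 9.70).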

How the results depend on the processing

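The 18 genes called in Fgf10+/- pups became 18 without a filter, 20 with a filter at the 50th percentile, 19 with the mean of features, 18 under either other scaling, 19 with limma's trend and robust options and 14 with only the groups compared. The 10 in wild-type pups became 10, 14, 13, 12, 12, 16 (5 higher, 11 lower) and 9 in that order. The shares of all tested genes moved too. In Fgf10+/- pups 10.7% were lower and 13% higher in the main fit, and 15.8% and 19.5% with the filter at the 50th percentile. In wild-type pups these shares were 8.74% and 10.3%, and 13.4% and 16%. The trend and robust options gave 11.7% and 14.6% in Fgf10+/- pups, and 10.1% and 12.1% in wild-type pups. With only the groups compared, the shares were 8.16% and 9.29%, and 7.74% and 8.74%. Between genotypes 0 became 1 in normoxia with the trend and robust options (Hnrnpu, adjusted p = 0.0485), and the interaction stayed at 0 wherever it was fitted; it was not refitted with only the groups compared. Leaving out 1 array at a time gave 15 to 18 and 8 to 11 genes called by oxygen in Fgf10+/- and wild-type pups, lowest without Fgf10+/- hyperoxia replicate 1 and wild-type hyperoxia replicate 3, and 0 between genotypes and in the interaction. Of the 33 genes, 1 lost an oxygen call in most of the 8 fits of its comparison (Hnrnpll) and 1 in 4 of 8 in each genotype (Hnrnpl). With only the groups compared, Hnrnph1 (adjusted p = 0.0509), Hnrnpk (0.0525), Srsf3 (0.057) and Hnrnpll (0.125) lost their call in Fgf10+/- pups, and Hnrnpl (0.0576) in wild-type pups. Of the 124 other splicing genes, the 31 called in Fgf10+/- pups became 49 with the trend and robust options and 19 with only the groups compared. Leaving out arrays gave them 26 to 33 in Fgf10+/- pups, 16 to 32 in wild-type pups and 0 to 1 between genotypes in normoxia; with the trend and robust options 1 was called between genotypes in hyperoxia. With the mean of features, 2 of them turned sign: Khsrp in Fgf10+/- pups (-0.10, against 0.43) and Luc7l2 in wild-type pups (-0.022, against 0.40). The replicate block called 18 genes in Fgf10+/- and 12 in wild-type pups, 0 between genotypes, and 1 of the other splicing genes in normoxia. The deviations of same-numbered arrays from their group means correlated at -0.0288 to 0.0873. Differently numbered arrays were not compared, so these values cannot tell whether the numbers pair the samples. The causes were not tested. An alternative chosen after seeing the data left out the 4 normoxia arrays of high heat shock signal. It called 7 genes in Fgf10+/- pups, where 1 normoxia array remains, 8 in wild-type pups and 0 between genotypes or in the interaction, and 15 and 19 of the other splicing genes by oxygen; fewer samples enter that fit. Dim features such as Srsf12 limit the precision of their folds.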
